A study of Drosophila melanogaster with 4 samples.

Results

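RNA polymerase II regions were examined where the assembled autosomal arms of Drosophila melanogaster run towards their centromeres and on scaffolds assigned to heterochromatin. A region belonged here if its midpoint lay in the last 2 Mb of 2L, in the last 2 Mb of 3L or in the first 2 Mb of 3R, or if it lay on 2LHet, 3LHet, 3RHet, XHet or YHet. Of the 6761 enriched regions listed by the authors for the replicate set, 266 (3.93%) met this rule. The proximal stretches held 229 of them, with 71 on 2L, 36 on 3L and 122 on 3R. The scaffolds held 37, with 18 on 3LHet, 10 on 3RHet, 4 on 2LHet, 4 on XHet and 1 on YHet. The comparison was with the 3762 regions on the rest of 2L, 3L and 3R. The rule used positions only, so width, spacing, score and recurrence in the replicates were free to vary. It was chosen with earlier results of these data known.

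The material was nuclei from heads of adult flies of the wild-type strain Oregon-R, labelled Mixed Adult, without any treatment. Heads were separated with sieves, and chromatin was fixed with formaldehyde and sonicated. Chromatin bound by RNA polymerase II was precipitated with an antibody from Abcam and sequenced (ChIP-seq) in 2 libraries, and 2 libraries of unprecipitated chromatin served as their inputs, 1 for each. The labels do not say whether the 2 libraries came from separate collections of flies, so the spread between them may be technical. A head contains neurons, glia, eye cells, fat body and muscle, and each value averages over all of their nuclei. The tissue could not be checked against marker genes, because no gene annotation of the same release was used. Read numbers are not part of the lists, and sequencing depth is therefore unknown.

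RNA polymerase II transcribes protein-coding genes and many noncoding RNAs, and its occupancy marks promoters and transcribed bodies. Pericentromeric heterochromatin is the compact, repeat-rich chromatin around centromeres, marked by methylated histones and bound by heterochromatin protein. It is poor in genes but not silent. Genes that reside in it, such as light on chromosome arm 2L of the fly, are known to depend on their heterochromatic surroundings for full expression. The files carry no chromatin mark, so the terms proximal and heterochromatic describe position here and not a measured state. No gene could be assigned to a region.

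On the proximal stretches, regions were sparser than on the rest of the same arms pooled, but 1 of the 3 stretches went the other way. Pooled over the 6 Mb of proximal sequence, the density was 35.3 ± 0.943 regions per Mb (SD, n = 2 here and below), with 36 in replicate 1 and 34.7 in replicate 2. The rest of the arms held 49.4 and 50.1 regions per Mb. The ratio of the densities was 0.711 ± 0.0258. Regions covered 13.38% of the proximal sequence in replicate 1 and 12.98% in replicate 2, against 17.8% and 17.7% of the rest, a ratio of 0.742 ± 0.0137. Both differences exceeded the spread between the replicates. With 2 libraries, an exact two-sided permutation of signs can give no p below 0.5, so no difference between stretches was tested, and each is set against that spread alone. The deficit lay on 2L and 3L. With 3R left out, the ratio of the covered shares fell to 0.469.

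The 3L stretch was the emptiest. It held 35 regions in replicate 1 and 30 in replicate 2, and its density was 0.324 ± 0.0395 times that of the rest of 3L. Its covered share, 5.58% and 5.59%, was 0.314 ± 0.000903 times that of the rest. The replicates thus differed in the number of regions there while the sequence covered was nearly equal. The 2L stretch held 62 and 65 regions, a density ratio of 0.663 ± 0.00957. The 3R stretch held 119 and 113, a ratio of 1.14 ± 0.0411, and 23.7% and 22.6% of it was covered, 1.27 ± 0.0434 times the share of the rest of 3R.

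**Figure D1:**
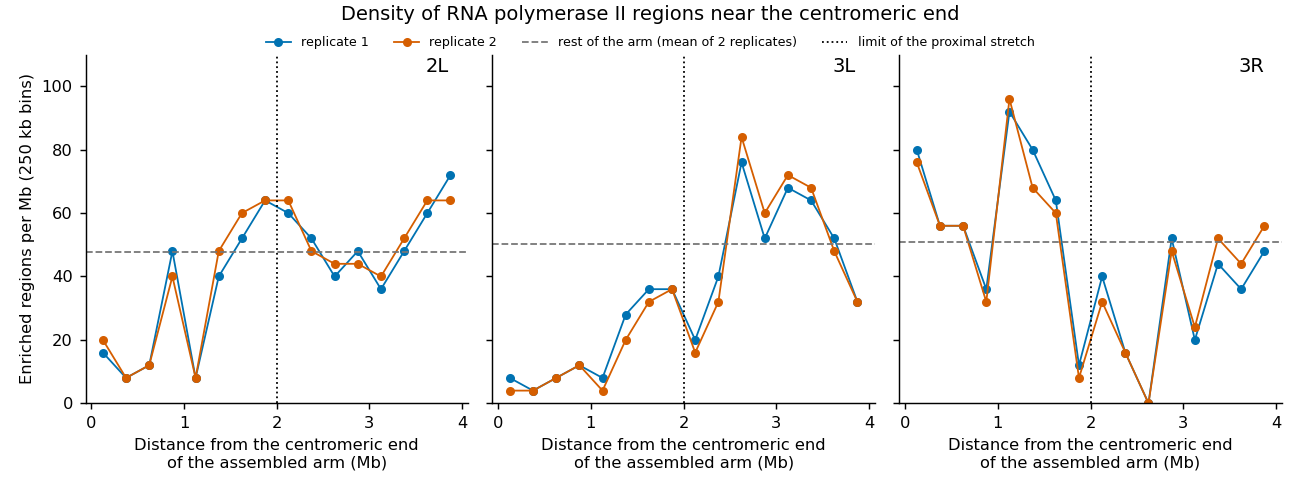
Density of enriched regions (regions per Mb, in bins of 250 kb) against distance in Mb from the centromeric end of the assembled arm, for 2L, 3L and 3R; points joined by lines are replicate 1 and replicate 2, the dashed line is the rest of the arm and the dotted line the 2 Mb limit. On 3L the bins of the innermost 1 Mb stay at 4 to 12 regions per Mb, while 3R reaches 92 and 96 in the bin from 1 to 1.25 Mb.

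Within each stretch the thinning followed distance from the assembled end on 2L and 3L, but not on 3R. The innermost 1 Mb of 3L held 8 regions in replicate 1 and 7 in replicate 2, and the next 1 Mb held 27 and 23. On 2L the innermost 1 Mb held 21 and 20, and the next held 41 and 45. On 3R the same steps held 57 and 55, then 62 and 58. Both replicates traced the same local peaks and troughs, as the plot of density by distance shows. On 2L, a bin with 12 and 10 regions at 0.75 to 1 Mb stood between bins with 3 and 2 regions in each replicate. On 3R, the bin at 1 to 1.25 Mb held 23 and 24 regions and the last bin of the stretch, at 1.75 to 2 Mb, held 3 and 2. The sparse sequence of 3R thus lay around the 2 Mb limit, and no region of either replicate fell in the bin at 2.5 to 2.75 Mb beyond it.

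Long intervals with no region in either replicate took up more of the 2L and 3L stretches than of the rest of the arms. They took up less of the 3R stretch. The lengths include any sequence where reads could not be placed, so these intervals lack called regions and not necessarily polymerase. Intervals of at least 100 kb took up 61.8% of the 3L stretch, 33.5% of the 2L stretch and 8.23% of the 3R stretch, against 15.3% of the rest of the 3 arms. The longest on 3L ran over 461 kb, from 24068558 to 24529500 (FlyBase release 5, 1-based, as for all positions here). The longest on 2L ran over 215 kb, from 22474285 to 22688995. The longest on 3R, from 1835395 to the limit at 2000000, measured 165 kb and was ended there by the limit itself.

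The scaffolds carried few regions, in scattered groups. Over 5.99 Mb they held 33 regions in replicate 1 and 30 in replicate 2, a density of 5.26 ± 0.354 regions per Mb, which was 0.106 ± 0.00814 times that of the rest of the arms. The covered share was 1.74% and 1.80%, a ratio of 0.0997 ± 0.00287. Intervals of at least 100 kb without a region in either replicate took up 88.6% of the scaffolds. The longest covered 3RHet from its first base to 1704363, which is 67.7% of that scaffold.

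All 10 members on 3RHet lay between 1700628 and 2381669. On 3LHet, 8 of the 18 lay between 205710 and 710930, a group of 4 between 1382967 and 1397739, and 1 between 1569136 and 1571015. The last 5 lay between 2188762 and 2411329. The 682 kb from 710943 to 1392737 held no region of either replicate, although the first 2 members of the group of 4 lay inside it. On XHet, the 4 members lay next to each other between 56498 and 86074, and the 118 kb beyond held none. The covered share of XHet, 11.4% and 10.3%, was 0.611 ± 0.0443 times that of the rest of the arms and above that of each other scaffold in both replicates. It rests on a scaffold of 0.204 Mb.

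The strongest members on the scaffolds had scores in the upper part of the lists, but none was near the top. The deposited score is 1 value per region and behaves as a log2 value with an offset that is not stated, so scores are compared within a list and as differences. The score percentile used below is the rank of a region in its own list, from 0 for the lowest to 100 for the highest. The region at 3RHet 2373356 to 2375596 had scores of 1.99 in replicate 1, 2.03 in replicate 2 and 2.00 in the set list, where it ranked 898 of 6761. Its neighbour at 3RHet 2379442 to 2381669 scored 1.83, 1.84 and 1.82. Both regions were narrow, between 2188 and 2268 bp in each of the lists. Their percentiles were 85.4 and 81.2 in replicate 1, and 80.5 and 75.04 in replicate 2. The region at 3LHet 2396705 to 2402109 scored 2.07 in replicate 1, 1.96 in replicate 2 and 1.91 in the set list. The region at 3LHet 2242547 to 2245439 scored 1.44, 2.05 and 1.71, and was higher in replicate 2. On 2LHet, the region from 166186 to 170099 scored 1.74, 1.89 and 1.79, and that from 29672 to 37473 scored 1.27, 1.54 and 1.29.

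XHet held the widest scaffold member and YHet a single one. The XHet region from 56498 to 73125 spanned 16.6 kb in the set list, with a score of 1.24, and was divided into 2 regions in each replicate, with highest scores of 1.47 and 1.79. It was directly followed by the region at 73150 to 80879, which scored 1.59, 1.70 and 1.43. The YHet region from 304470 to 306280 scored 0.64 in replicate 1 and 0.34 in the set list and had no counterpart in replicate 2. The Y chromosome carries few genes, expressed mainly in the male germ line, and the labels do not give the proportion of males among the heads.

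Of the 37 scaffold members, 27 overlapped a region of both replicates (73.0%, against 78.1% of all regions of the set list). Their scores ran from 0.42 to 2.07 in replicate 1 (median 1.08) and from 0.40 to 2.05 in replicate 2 (median 1.44), and 25 of the 27 scored higher in replicate 2. Scores as a whole were higher in replicate 2, with medians of 1.06 and 1.20 on the rest of the arms. In percentile terms 19 of the 27 were higher in replicate 2, by a median of 3.33 points, and the largest shift was 17.7 points when the highest-scoring overlapping region was taken. Over all 32 overlapping pairs of scaffold regions, 23 were higher in percentile in replicate 2, by a median of 4.06 points over the 32. On the rest of the arms 1748 of 3421 pairs were, with a median of 0.164 points. Of the 32 pairs, 3 shifted by over 20 points, the most by 45.2. This share, 9.4%, was near the 9.32% on the rest of the arms. The 10 members without both replicates had low set list scores, 0.52 at most.

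**Figure D2:**
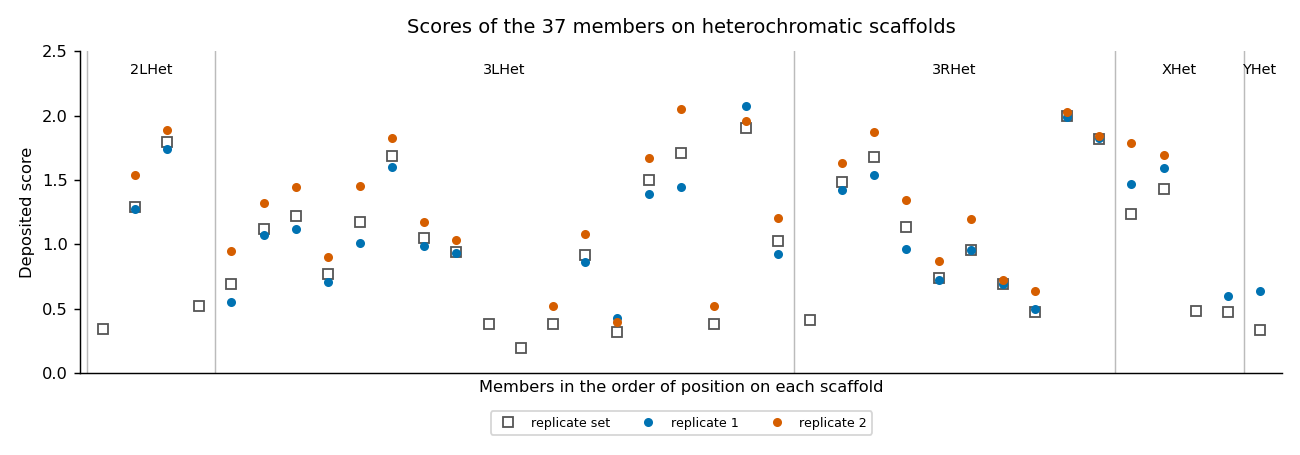
Deposited score (vertical axis) of the 37 members on heterochromatic scaffolds, in the order of position on each scaffold; squares are the replicate set list, points the highest-scoring overlapping region of replicate 1 or replicate 2. Of the 37, 27 have a value in both replicates, and the other 10 have set list scores of at most 0.52.

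On the proximal stretches the highest scores reached the top of the lists, on 2L and 3R but not on 3L. The highest on 3R was the region at 484137 to 486815, with scores of 2.95 in replicate 1 (rank 41), 3.44 in replicate 2 (rank 19) and 3.12 in the set list (rank 23). The highest on 2L was the region at 21050662 to 21053139, with 2.94 in replicate 1 (rank 44), 3.23 in replicate 2 (rank 47) and 3.05 in the set list (rank 33). It was also the member nearest to the 2L limit. Both were narrow, 2.68 and 2.48 kb in the set list, and both held similar ranks in the 2 libraries.

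The next strongest on 3R, from 1192550 to 1195105, scored 2.79, 3.23 and 2.95. The third on 3R, from 382600 to 384896, scored 2.48, 2.72 and 2.58. On 2L, the regions at 21626349 to 21631033 and 21074322 to 21076694 scored 2.57 and 2.55 in the set list. On 3L the highest scores were 2.28, from 22952418 to 22955291, then 2.24, from 22719001 to 22722460, and 1.89, from 22856112 to 22874314. The first of these ranked 534 in the set list, 595 in replicate 1 and 635 in replicate 2. In replicate 2 the second of them scored higher, with 2.67 and rank 406. The strongest region of the 3L stretch thus stood below those of the other stretches in each list. All of the strongest on 3L lay in the outer 1 Mb. The 10 members in the inner 1 Mb had set list scores from 0.34 to 1.17, the highest at 24529499 to 24535259, close to the assembled end.

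**Figure D3:**
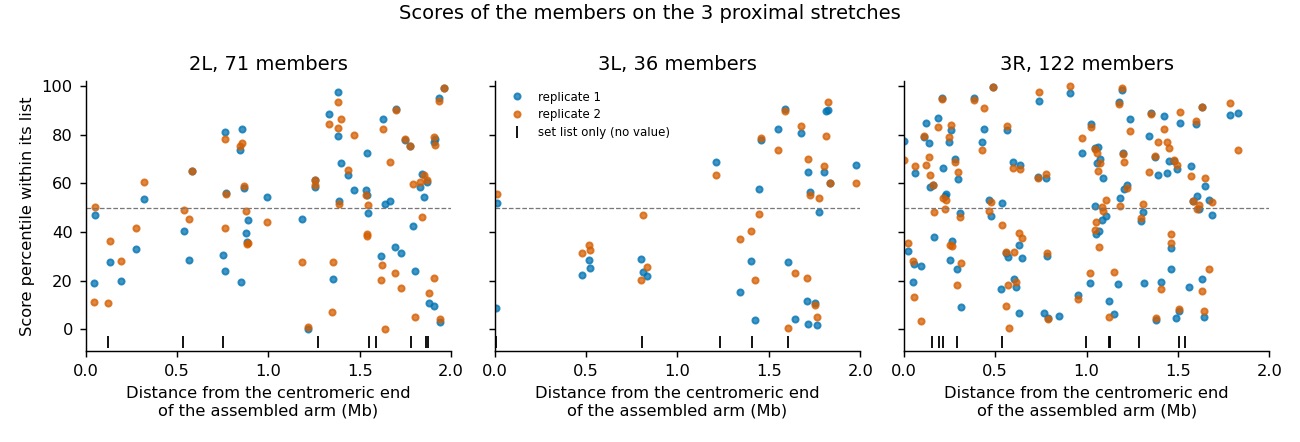
Score percentile within its list (vertical axis) of each member on the proximal stretches against distance in Mb from the centromeric end of the assembled arm; points are the highest-scoring overlapping region of replicate 1 or replicate 2, and ticks below 0 mark members found in neither replicate. In the inner 1 Mb of 3L the highest points are at 51.9 in replicate 1 and 55.7 in replicate 2, while the 2 members of 3R in the outermost 250 kb of its stretch lie between 73.9 and 93.2.

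The region with the highest score in all of replicate 2 lay on the 3R stretch, from 910806 to 913951, with a score of 4.15 and rank 1 of 6219. In replicate 1 the same place was part of a single region of 10346 bp, from 903857 to 914202, with a score of 2.62 and rank 177. Replicate 2 divided that sequence into the region of 3146 bp with the high score and a neighbour of 6683 bp at 904000 to 910682, which scored 1.21. The set list joined it all into 12144 bp with a score of 2.56 and rank 269. This region was singled out after its values were seen. Its rank differed with the way the domain was divided, and with 1 library on each side the difference has no replicate check.

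Members were slightly wider than the other regions at the median. Members of replicate 1 had a median width of 2701 bp, where regions on the rest of the arms had 2519 bp. For replicate 2 the medians were 2796.5 and 2463 bp, and the mean ratio was 1.10 ± 0.0447. The excess was larger than the spread between the replicates. It was seen on the pooled stretches, with a ratio of 1.08 ± 0.0608, and on the pooled scaffolds, with 1.14 ± 0.0317. Single sequences differed. The ratio was 1.09 ± 0.00759 on the 3L stretch and 1.10 ± 0.0703 on the 3R stretch. On the 2L stretch it was 0.989 in replicate 1 and 1.06 in replicate 2, and on 3RHet 0.958 and 1.02. On 2LHet, 3LHet and XHet it was above 1 in both replicates. In replicate 1 the quartiles of the members, 2146 and 4017 bp, were close to those of the other regions, 2116.25 and 4002.25 bp. In replicate 2 they were 2247.25 and 4167.75 bp, both above the 2126 and 3945 bp of the other regions. Among the upper 50% of each list by score the ratio was 1.03.

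Most broad members lay on 3R. Of the 14 members of 10 kb or more in the set list, 9 lay on the 3R stretch, 3 on 2L, 1 on 3L and 1 on XHet. The 3R stretch held 122 of all 266 members. The 3R stretch held 7 such regions in replicate 1 and 5 in replicate 2, or 3.5 and 2.5 per Mb, against 1.78 per Mb on the rest of 3R in both replicates. The 3L stretch held 1 in each replicate, 0.5 per Mb, against 1.91 and 1.60. These rates also carry the density of regions. As a share of regions, broad ones made up 5.88% and 4.42% on the 3R stretch, against 3.49% in each replicate on the rest of 3R. On the 3L stretch the shares were 2.86% and 3.33%, against 3.84% and 3.16%. Broad regions made up 4.02% of all members and 3.62% of other regions in replicate 1, but 2.52% and 3.34% in replicate 2, so the direction differed between the replicates.

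The widest member on 3R, from 1092859 to 1115690, spanned 22.8 kb in the set list, with a score of 0.93. Replicate 1 called it as 1 region of 21215 bp and replicate 2 as 3 regions of 16747 bp together. The next on 3R, from 112617 to 131980, spanned 19.4 kb with a score of 1.47. The widest on 3L, from 22856112 to 22874314, spanned 18.2 kb in the set list, 16965 bp in replicate 1 and 16770 bp in replicate 2, and was undivided in each. It was the third highest in score on that stretch as well. The widest on 2L, from 21153624 to 21167398, spanned 13.8 kb with a score of 1.04, and was divided into 2 in both replicates. The next on 2L spanned 10.2 kb, and the next on 3L, from 23329408 to 23337476, spanned 8.07 kb.

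Members were spaced more widely at the median, and more so among the long gaps. From a member to the next one on the same sequence, the median gap of replicate 1 was 6835 bp, where the rest of the arms had 5785 bp. For replicate 2 these gaps were 7702 and 5602.5 bp, and the mean ratio was 1.28 ± 0.137. The mean gap was 32.6 and 34.1 kb, against 16.6 and 16.4 kb. Among the members' gaps, 14.5% and 16.0% reached 50 kb, against 9.10% and 8.81% among the others. Gaps under 2 kb made up 25.3% and 19.9%, against 26.8% and 27.1%. Long gaps thus took a larger share among members in both replicates, and short gaps a smaller one.

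The median hid large differences between the sequences. On 3L it was 15703.5 and 21345 bp, 3.20 ± 0.885 times that of the rest of the arm. It was 1.53 ± 0.0411 times on 2L and 0.887 ± 0.0380 times on 3R. On the scaffolds together it was 34308 and 40383 bp. Without 3R the ratio for all members rose from 1.28 to 2.64, and among the upper 50% of each list by score it was 0.879, so the sign of the median difference depended on which regions were counted. Regions were joined into runs where less than 10 kb separated them in the set list. Of the scaffold members, 35.1% then stood alone, as did 19.7% of those on the stretches and 15.0% of the regions on the rest of the arms. The largest run of members held 15 regions over 109 kb, on 3R from 203486 to 312749.

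**Figure D4:**
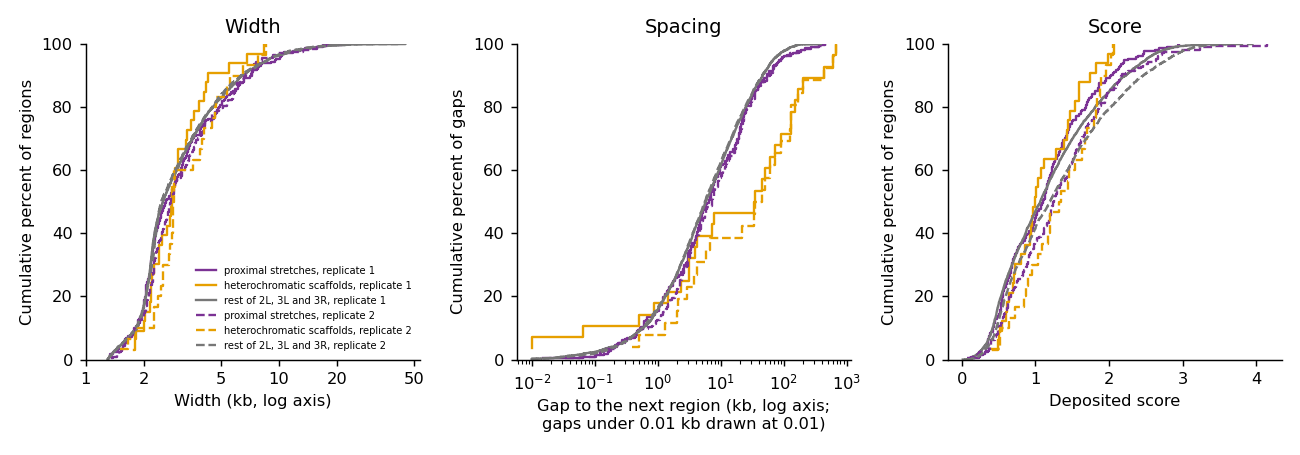
Cumulative percent of regions by width (kb, log axis), of gaps by length (kb, log axis) and of regions by deposited score, for the proximal stretches, the heterochromatic scaffolds and the rest of 2L, 3L and 3R; solid lines are replicate 1 and dashed lines replicate 2. The curves for width nearly coincide, the scaffold gaps are shifted to the right, and the scaffold scores end near 2 while the others run beyond 3 in replicate 2.

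Scores of the members were close to those of the other regions at the median, with smaller shares at both the high and the low end. In replicate 1 the median score of members was 1.08 and that of the rest of the arms 1.06. In replicate 2 these medians were 1.25 and 1.20. The difference of 0.035 ± 0.028 was barely above the spread between the replicates, and it turned to -0.051 with 3R left out. In the set list it was 0.12. The upper quartile was lower among members, by 0.17 in replicate 1 and 0.10 in replicate 2. Of the members, 14.9% and 13.4% were among the highest 20% of all scores in their list, against 20.9% and 20.4% of the other regions, a difference of -6.50 ± 0.596 percentage points. Among the lowest 20% of all scores were 18.5% and 16.0% of the members, against 21.3% and 22.5%. Both tails were therefore thinner among members in each replicate.

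In both replicates the scaffolds had smaller shares at both ends of the scores than the pooled stretches or the rest of the arms, over few regions. Of their regions, 3 of 33 in replicate 1 and 2 of 30 in replicate 2 were among the highest 20%, and 3 in each were among the lowest 20%. In the set list 18.9% of the scaffold members were among the lowest 20%, against 17.5% on the stretches and 22.4% on the rest of the arms. Their median percentile was 46.2 in replicate 1 and 54.96 in replicate 2, on either side of the middle. The 3L stretch had the lowest median percentile of the stretches, 28.7 in replicate 1 and 47.2 in replicate 2. It was 53.2 and 49.0 on 2L and 53.1 and 52.9 on 3R. For 3L the gap between the replicates was larger than any difference between the stretches in replicate 2. Of the 33 overlapping pairs there, 22 had the higher percentile in replicate 2, with a median shift of 3.51 points. On the rest of 3L 573 of 1120 pairs did, with a median shift of 0.179 points.

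On the rest of the arms the median score rose with each class of width, so scores were also compared at like width. In replicate 1, the 105 members from 2 to under 3 kb wide had a median of 1.12, and the 1511 other regions of that width 1.11. In replicate 2 the medians in that class were 1.31 and 1.27. Below 2 kb the medians were 0.42 and 0.39 in replicate 1 and 0.45 and 0.45 in replicate 2. From 3 to under 5 kb they were 1.23 for members and 1.21 for other regions in replicate 1, and 1.28 and 1.36 in replicate 2. At 5 kb and over the medians were 1.17 for 45 members and 1.40 for other regions in replicate 1, and 1.54 for 47 members and 1.56 for other regions in replicate 2. The replicates thus differed in which class of wide members scored lowest against the other regions.

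Over all members, the share of regions found by both replicates differed little from that elsewhere. In replicate 1, 235 of 249 members (94.4%, 95% exact binomial interval 90.7 to 96.9) overlapped a region of replicate 2 by at least 1 bp, where the share over the whole list was 93.2% and over the rest of the arms 94.1%. In replicate 2, 231 of 238 (97.1%, 94.0 to 98.8) overlapped a region of replicate 1, against 93.6% of the whole list and 93.6% of the rest of the arms. The difference from the rest of the arms was 1.87 ± 2.31 percentage points, less than the spread between the replicates. With each list cut to its upper 50% by score it was -3.00 points. The share of set list members that overlapped both replicates then differed from that on the rest of the arms by -4.14 points. Both values count a partner below the cut as absent. In the full lists no member without a partner stood above percentile 30.7 in replicate 1 or 12.2 in replicate 2. On the rest of the arms these limits were 44.6 and 41.4. Every replicate region of these groups in the upper 50% thus had a partner in the other full list. The interval of replicate 1 holds the share of the rest of the arms and that of replicate 2 lies above it. The intervals cover the counting of regions only, and neighbouring regions are not independent. Of the set list members, 214 of 266 (80.5%, 75.2 to 85.0) overlapped a region of both replicates, against 78.1% of the whole list and 79.5% of the rest of the arms. The 27 of 37 scaffold members make 73.0% (55.9 to 86.2), an interval that holds the share of the rest of the arms.

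In the replicate lists, the members without a partner were weak and narrow. The 14 in replicate 1 scored from 0.25 to 0.70. Of them, 8 lay on the 3R stretch, which held 119 of the 249 members of that list. The partner share there was 93.3%, against 94.0% on the rest of 3R. The 7 in replicate 2 scored from 0.064 to 0.52. The medians, 0.51 and 0.49, compare with 0.45 and 0.47 for the regions without a partner on the rest of the arms. Counted over the 266 members of the set list, 14 overlapped replicate 1 alone, 7 overlapped replicate 2 alone and 31 overlapped neither. On the rest of the arms these counts were 176, 202 and 393 of 3762. Regions in neither replicate thus made up 11.7% of the members and 10.4% of the other regions. The 31 members had a median score of 0.36, against 0.34, and 2 of them scored above 1, with 2.24 the highest. Of the 31, 14 fell short of 1301 bp, the narrowest width in the replicate lists, as did 208 of the 393.

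Overlapping members and other overlapping regions shifted in percentile between the libraries by similar amounts. The midpoints of members lay farther apart on 2L and 3L. The percentile differed by a median of 4.86 points within the 248 overlapping pairs of members and by 5.16 points within 3421 pairs on the rest of the arms. These are descriptions across regions of the same 2 libraries, and some pairs share a region. Shifts of over 20 points were found in 27 of 248 pairs (10.9%) and in 9.32% of the other pairs. On the 3L stretch they were found in 7 of 33 pairs (21.2%), against 9.91% on the rest of 3L.

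Shared sequence made up 84.8% of the sequence covered by either replicate among members, against 83.5% on the rest of the arms. The lowest share among the sequences with members in both replicates was 76.8%, on XHet. For pairs in which each region overlapped only the other, the midpoints lay a median of 77.5 bp apart among 195 pairs of members and 57 bp apart among 2780 other pairs. On 3L the distance was 138.25 bp, over 26 pairs, and on 2L 83 bp, over 53. On 3R it was 57 bp, over 93 pairs, and on the scaffolds 61 bp, over 23. Members divided into 2 or more regions by the other list made up 4.42% in replicate 1 and 6.72% in replicate 2, against 5.22% and 4.40%, with no common direction.

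**Figure D5:**
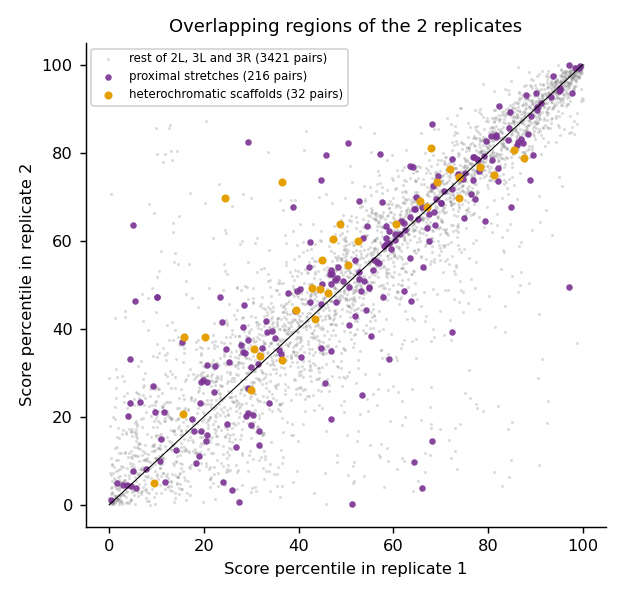
Score percentile in replicate 2 against score percentile in replicate 1 for overlapping regions of the 2 lists; each point is a pair, coloured by position on the proximal stretches, on the heterochromatic scaffolds or on the rest of 2L, 3L and 3R, and the line marks equal percentiles. The 248 pairs of members and the other pairs lie along the line with scatter on both sides, and the highest scaffold points lie at 87.6 in replicate 1 and 81.1 in replicate 2.

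The limits of the stretches were set at a fixed distance of 2 Mb, with earlier results of these data known. At the 2L limit, position 21011545, the nearest member scored 3.05 in the set list and the nearest region outside, at 20921702 to 20923874, scored 0.62. At the 3L limit, position 22543558, the nearest member, at 22563639 to 22566113, scored 1.39 and the nearest region outside, at 22467002 to 22468974, scored 0.31. At the 3R limit the nearest member, from 1824731 to 1835361, was 10.6 kb wide and scored 1.69, and the nearest region outside, at 2011986 to 2014183, scored 1.32.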

How the data were processed

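Per the file headers, the deposited lists give enriched and depleted regions on FlyBase release 5 for ChIP replicate 1, for ChIP replicate 2 and for the set of both. Each region carries 1 score made by the authors. Per the submitters' processing notes, Bowtie 0.12.7 was used. Not given in the sources used here are the region caller, its threshold, how replicates were joined and whether reads with several matches, as repeats yield, were kept. With each list's most common score subtracted, 22.9% to 48.2% of base 2 antilogarithms equalled a fraction with whole numerator and denominator (at most 300, to within 1e-10), against at most 0.266% for base e or 10.

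Regions were assigned by midpoint. Density, covered share, width, gap, score and overlap (at least 1 bp) were computed per list, with mean and SD over 2 replicates. The functions were tested on simulated data. The members, the measures and the rule for named regions (on each stretch the 3 highest-scoring and the 2 widest members found in both replicates, on each scaffold the 2 highest, and the nearest regions at each limit) were chosen with earlier results of these data known. No genome or annotation of release 5 was used, so no sequence is printed and no gene is named. The input libraries have no list of their own here. Software was pandas 2.3.3 and numpy 2.4.6 on Python 3.11.15, with scipy 1.17.1 for exact intervals and matplotlib 3.10.9 for plots.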

Additional observations from a re-analysis of the deposited data

Results flagged for a closer look

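The proximal stretch of 3R and those of 2L and 3L differed from the rest of their arms in opposite directions in both replicates. The mean ratio of region densities was 1.14 on 3R, 0.663 on 2L and 0.324 on 3L. The mean ratio of covered shares was 1.27 on 3R, 0.631 on 2L and 0.314 on 3L. The difference between the arms was not tested.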

How the results depend on the processing

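No paired analysis was possible because the inputs have no lists of their own and 1 group of 2 ChIP libraries was compared within each list. Among the upper 50% of each list by score, the density ratio of the stretches was 0.755, the width ratio 1.03 and the spacing ratio 0.879. The score difference there was -0.172. The difference in partner share was -3.00 points and that in the share found in both replicates -4.14 points, where a partner below the cut counted as absent. With a stretch of 1 Mb the density ratio was 0.567, the covered share ratio 0.555, the spacing ratio 1.58, the score difference -0.051 and the difference in the share found in both -2.80 points. With 3 Mb the density ratio was 0.743 and the score difference -0.045. Without 3R the density ratio was 0.490, the covered share ratio 0.469, the spacing ratio 2.64, the score difference -0.051 and the difference in the share found in both -1.40 points. On the scaffolds alone, the spacing ratio was 6.57, the difference in partner share -0.21 points and that in the share found in both -6.53 points. Leaving out a replicate moved the share found in at least the remaining one between -1.79 points (without replicate 1) and 1.53 points. The cause of these changes was not tested. Stretches were sparser than the rest of the arms under each alternative run, and scaffolds were too. Merging regions within 500 bp and an overlap of at least 50% moved no result beyond its spread. Depth is unknown, so regions too weak to be called cannot be counted.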

Other observations

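One region called depleted lay in the proximal sequence, at 3L 22630031 to 22631878 in the set list, with a score of -0.068. Replicate 1 also called it depleted, from 22630076 to 22631829, with a score of -0.014. Replicate 2 called it enriched, from 22630069 to 22631799, with a score of 0.064 and rank 6218 of 6219. The 3 scores lay close to 0, and the call differed between the replicates. No depleted region lay on a scaffold, and 27 of the 41 in the set list lay on the rest of the 3 arms.

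A pair of set list members on 2L had high scores without any region of either replicate beneath them. The region at 21424228 to 21425228 spanned 1001 bp, the smallest width in the set list, scored 2.24 and ranked 562 of 6761. The nearest region of replicate 1 lay 29 kb away and that of replicate 2 lay 28.9 kb away. The region at 21458281 to 21460297 spanned 2017 bp, scored 2.04 and ranked 834. It was not isolated. The next members began at 21463343, 21468383, 21473426 and 21478473, at nearly even steps. They were 2007 to 2009 bp wide, and each overlapped a region of both replicates. Of the 31 members found in neither replicate the pair were the only 2 with a score above 1. Of the 393 such regions on the rest of the arms 3 had one. The pair was singled out after its values were seen. Whether the pair or the evenly spaced neighbours lie in repeated sequence was not tested, as no genome of release 5 was used. What the scores of the pair measure is uncertain to that extent.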
